A study of Arabidopsis thaliana with 8 samples.

Results

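FLA11 (AT5G03170), FLA12 (AT5G60490), FLA2 (AT4G12730) and AGP21 (AT1G55330) encode arabinogalactan proteins of the Arabidopsis thaliana stem. They were picked by locus as a set of related wall glycoproteins, and they are 4 of the 7418 genes that could be assigned to at least 1 of 37685 array probes. One probe measured each gene and gave a value on each of the 8 arrays, and low values were not filtered. All 4 genes owe their probe assignment to the list of genes changed over 1.5-fold that the study drew up from the same 8-week arrays. A large change at 8 weeks was thus set by how they could be named. The list holds changes in both directions. Because the genes were chosen with earlier results of these data known, their direction at 8 weeks is not independent either. None was on the list made from the 4-week arrays, and the 4-week values are therefore free of this selection.

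SND2-OV(A) is a single homozygous T4 line of ecotype Col-0 that carries the NAC transcription factor SND2 in the constitutive overexpression vector pMDC32, and it was chosen for array work because it showed a rise of a cellulose synthase transcript. Its bottom primary inflorescence stem was compared with that of wild type Col-0 on 2-colour Agilent arrays, at 8 weeks and at 4 weeks of age, to ask which genes respond to SND2. Each age had 4 arrays and 3 biological replicates, in which several plants of a genotype were pooled. Replicate 1 was hybridized with the line in Cy5 and again with the line in Cy3, replicate 2 only with the line in Cy3 and replicate 3 only with the line in Cy5. Hygromycin selection of the line is given in the labels for both ages, whereas the methods describe none for the 4-week plants. A whole stem segment mixes many cell types, and more cells of a type cannot be told apart from more RNA per cell.

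Arabinogalactan proteins are secreted proteoglycans whose hydroxyproline residues carry branched chains of galactose and arabinose, and many are tethered to the outer face of the plasma membrane by a glycosylphosphatidylinositol anchor. Fasciclin-like members add fasciclin domains, which are linked to adhesion between cells and their matrix. FLA11 and FLA12 are close relatives expressed in stems while secondary walls are laid down in fibres and vessels, and plants that lack both have altered stem strength and wall composition. FLA2 is a fasciclin-like protein expressed more widely, and AGP21 is a short arabinogalactan peptide known from root epidermis.

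Values are given as log2 of the SND2-OV(A) signal relative to wild type, so that 0 means equal signal and 1 means a doubling in the line. SND2 itself, the transgene, stood at 7.25, 5.23 and 7.60 in replicates 1, 2 and 3 at 8 weeks and at 2.97, 2.75 and 3.37 at 4 weeks. The signal of SND2 in the older stems is described as saturated in the published tables, so that those ratios are likely underestimates. Array medians over all probes lay between -0.11 and 0.06. The SD over probes was 1.01 on the 8-week Cy5 array of replicate 1 (named by the dye of the line) and 0.308 to 0.597 on the other 7. Of the xylem and fibre markers only the laccase LAC4 could be assigned to a probe, and none of the markers of cambium, phloem, epidermis or green cortex could, so that the makeup of the stem segments was checked no further.

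In 8-week stems the mean ratios of all 4 genes were higher in SND2-OV(A) by 1.67-fold to 1.83-fold, and in 4-week stems they stood between 0.98-fold and 1.09-fold. Replicate 3 gave the highest 8-week value of every gene, and only FLA2 had 3 similar 8-week replicates. No gene passed the thresholds in the fit across all probes (adjusted p under 0.05 and a change over 1.5-fold in limma), which called 0 of 37685 probes at either age, a percentage of 0. The transgene SND2 was not called either, at an adjusted p in limma of 0.44 at 8 weeks and 0.41 at 4 weeks. The fit thus missed a very large rise, and the lack of a call is not evidence that a member was unchanged. The study's own limma fit differed, since it called all 4 genes from the 8-week arrays at a false discovery rate under 0.05. The study also reports FLA12 as significantly higher by RT-qPCR on the same RNA. Its RT-qPCR primers cover FLA11 and AGP21 as well, and it states that every RT-qPCR profile matched the arrays. Similar results are reported for selected genes from a separately grown trial. The source of the difference between the fits was not tested. At an unadjusted p under 0.05 the fit held 1319 probes at 8 weeks (3.5%) and 374 at 4 weeks (0.992%).

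FLA11 encodes a fasciclin-like protein widely used as a marker of secondary walls. At 8 weeks its log2 ratio was 0.43 on the Cy5 array and 0.69 on the Cy3 array of replicate 1, 0.01 in replicate 2 and 1.76 in replicate 3. Replicate 3 lay more than 1 log2 unit above every other array, and replicate 2 was at the wild type level. At 4 weeks the values, in the same order, were 0.34, -0.30, -0.16 and 0.17. Both arrays with the line in Cy5 were above 0 and both with the line in Cy3 were below it. The mean over replicates was 0.78 ± 0.895 at 8 weeks and 0.01 ± 0.164 at 4 weeks (SD, n = 3 each).

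FLA12, the closest relative of FLA11 among the 4, had log2 ratios of 0.44 and 0.42 on the Cy5 and Cy3 arrays of replicate 1 at 8 weeks, 0.09 in replicate 2 and 2.09 in replicate 3. The dye-swapped pair differed by little, and the value of replicate 3 was again far above the rest. At 4 weeks FLA12 stood at 0.36 and -0.29 in replicate 1, at -0.29 in replicate 2 and at 0.17 in replicate 3. The sign followed the dye of the line on all 4 of these arrays, as it did for FLA11. Means were 0.87 ± 1.07 at 8 weeks and -0.03 ± 0.235 at 4 weeks (SD, n = 3 each).

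FLA2 showed the steadiest 8-week values, 0.26 and 0.68 on the Cy5 and Cy3 arrays of replicate 1, 0.62 in replicate 2 and 1.14 in replicate 3. All were above 0, and the SD over replicates was 0.353, against 0.895 to 1.15 for the other members. Its 4-week values were 0.27 and 0.59 in replicate 1, 0.14 in replicate 2 and -0.19 in replicate 3. Replicate 1 was the highest and replicate 3 the lowest at this age. The mean was 0.74 ± 0.353 at 8 weeks and 0.13 ± 0.308 at 4 weeks (SD, n = 3 each).

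AGP21 encodes a peptide that is nearly all glycosylated backbone once it is processed. Its 8-week values spread most, with 1.02 on the Cy5 array and 0.06 on the Cy3 array of replicate 1, -0.25 in replicate 2 and 2.02 in replicate 3. One replicate was thus below wild type and the dye-swapped arrays of replicate 1 differed by almost 1 log2 unit. At 4 weeks AGP21 gave 0.39 and 0.23 in replicate 1, -0.22 in replicate 2 and 0.18 in replicate 3. Replicate 2 was its lowest at both ages. Means were 0.77 ± 1.15 at 8 weeks and 0.09 ± 0.276 at 4 weeks (SD, n = 3 each).

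**Figure D1:**
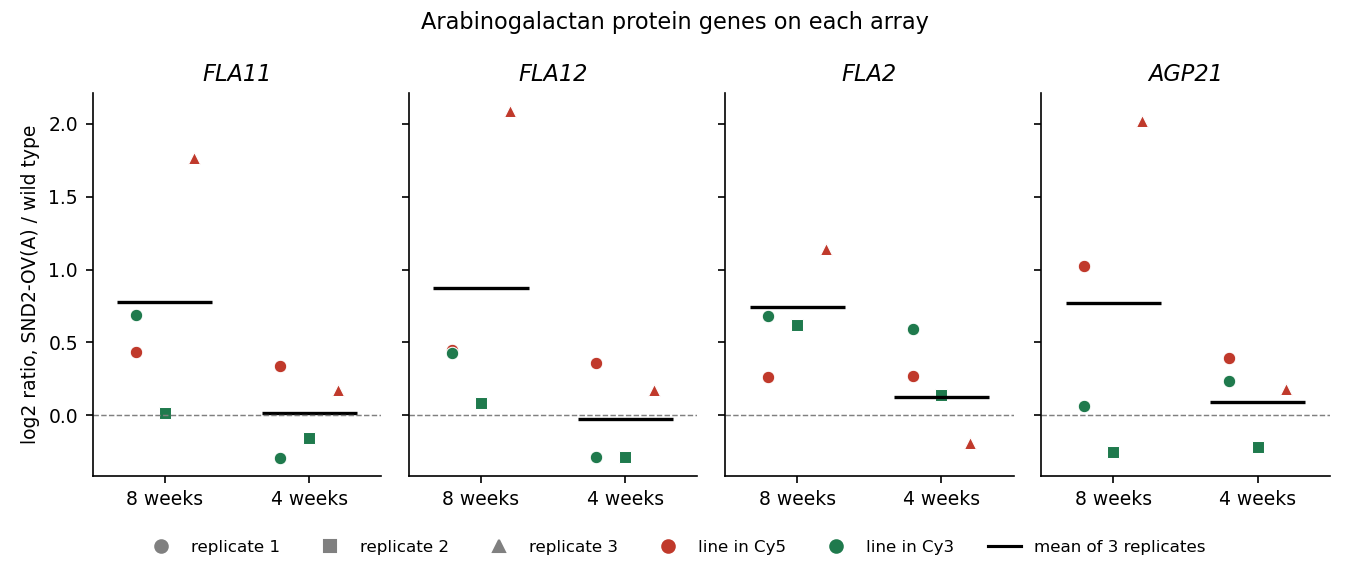
Log2 ratio of SND2-OV(A) over wild type on each array for FLA11, FLA12, FLA2 and AGP21 at 8 and 4 weeks. Marker shape gives the biological replicate, colour the dye of the line, and the bar the mean of 3 replicates after the dye-swapped pair was averaged; the triangle of replicate 3 is the top point of every gene at 8 weeks.

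FLA11, FLA12 and FLA2 were higher in SND2-OV(A) in all 3 replicates at 8 weeks, as were 7.73% of all probes, and on all 4 arrays, as were 4.36%. AGP21 was higher in 2 of 3 replicates. All 4 means exceeded 1.5-fold, which 0.456% of probes did. The naming of the genes from these arrays set the size of change behind the last count and favoured the other 8-week counts, and nothing is read from any of them. At 4 weeks 0 of the 4 genes were higher in all 3 replicates, against 8.91% of probes, and 0 of 4 means exceeded 1.5-fold, against 1.05%.

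Ranked by mean ratio among the 37685 probes at 8 weeks, FLA12 was at position 54, FLA11 at 76, AGP21 at 82 and FLA2 at 87. Ranked by the moderated t, which divides the mean by its error, FLA2 was at 81, FLA11 at 794, FLA12 at 939 and AGP21 at 1517. FLA2 thus had the lowest of the 4 means and the highest of the 4 t values. The means of neighbours in this order differed by at most 0.1 on the log2 scale, less than any of their SDs. At 4 weeks the positions by mean were 6043 for FLA2, 8486 for AGP21, 17025 for FLA11 and 21576 for FLA12.

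Intervals from the limma fit show what 3 replicates allow. At 8 weeks the 95% confidence interval of the log2 ratio was 0.33 to 1.16 for FLA2, which left out 0. That of FLA11 was -0.15 to 1.70, that of FLA12 -0.23 to 1.97 and that of AGP21 -0.41 to 1.95. The adjusted p in limma was 0.99 for each of the 4 genes. Since the 4 genes could be named only through a large change on these same arrays, the intervals describe their spread and test nothing.

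At 4 weeks, where the genes had not been selected, the limma interval was -0.31 to 0.34 for FLA11, -0.40 to 0.35 for FLA12, -0.31 to 0.56 for FLA2 and -0.31 to 0.50 for AGP21. The adjusted p in limma was 1 for each. All 4 upper limits lay below a 1.5-fold rise, that of FLA2 only just. Exact two-sided sign permutation p-values were 0.75 for FLA11, FLA2 and AGP21 and 1 for FLA12, in a design that cannot go below 0.25.

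The change of the ratio with age was tested by fitting all 6 replicate ratios together in limma. FLA2 was higher at 8 than at 4 weeks by 0.62 on the log2 scale (95% confidence interval 0.03 to 1.20), with an adjusted p of 1 in limma. The difference was 0.77 for FLA11 (-0.26 to 1.80), 0.90 for FLA12 (-0.33 to 2.12) and 0.68 for AGP21 (-0.64 to 2.00), all with an adjusted p of 1 in limma. The fit called 0 probes, and 603 probes (1.6%), FLA2 among them, had an unadjusted p under 0.05. Because the genes were named from the 8-week ratios, neither the sign nor the size of these differences is independent of their selection. The same holds for every interval and p drawn from them, and no age change is read from them. FLA2 was the only member whose 3 replicate ratios at 8 weeks all lay above its 3 at 4 weeks. Of all probes 2.13% did so, a share that is not comparable for the same reason. The exact two-sided permutation p of FLA2 was 0.1, the smallest possible with 3 against 3. The exact p was 0.3 for FLA11, 0.2 for FLA12 and 0.5 for AGP21.

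**Figure D2:**
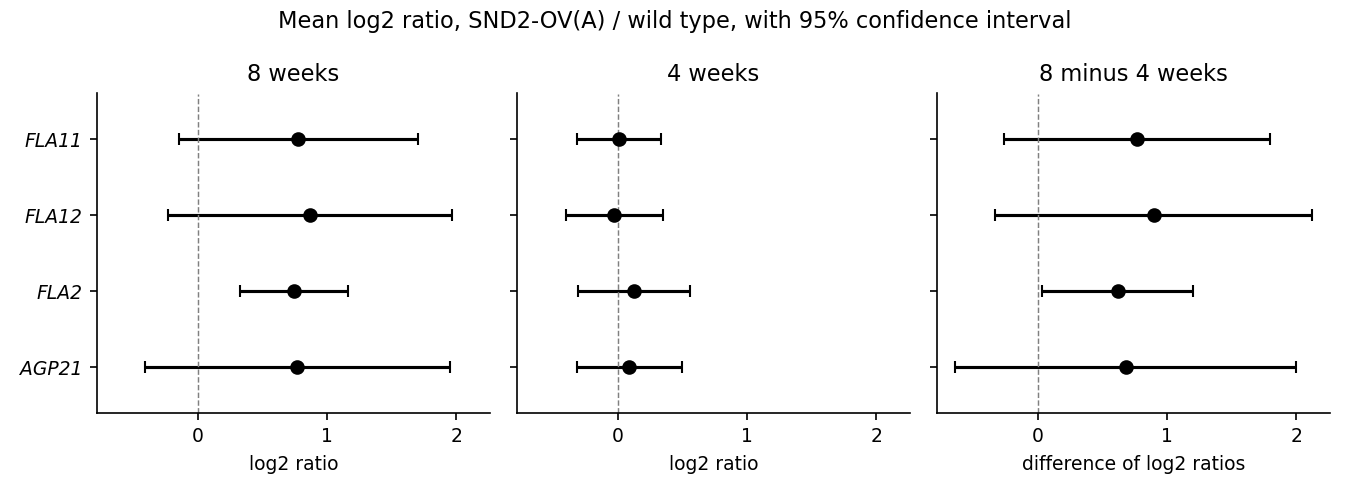
Mean log2 ratio of SND2-OV(A) over wild type for each gene at 8 weeks and at 4 weeks, and the difference of the 2 means, with points for the estimate and bars for the 95% confidence interval from limma (3 replicates per age). The intervals of FLA2 at 8 weeks and for the difference, 0.33 to 1.16 and 0.03 to 1.20, leave out 0 before adjustment, and those of the other genes include it in every panel. All 4 genes were named from the 8-week arrays, so the intervals that use that age test nothing.

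Much of the 8-week mean rested on replicate 3. On that array FLA12 held position 67 of 37685, AGP21 73, FLA11 109 and FLA2 292, and all 4 exceeded 2-fold there, as 1.01% of probes did. This array was among those from which the genes were named, so that these positions and this count restate the selection. In replicate 2, the only one at 8 weeks with no array of the line in Cy5, FLA2 was at position 286 and FLA12, FLA11 and AGP21 at 9849, 13931 and 29142. Without replicate 3 the 8-week mean was 0.29 for FLA11, 0.26 for FLA12, 0.54 for FLA2 and 0.15 for AGP21. FLA2 therefore kept most of its mean and the other 3 lost most of theirs. Replicate 3 was the highest of the 3 for 46.2% of all probes, and highest with replicate 2 lowest, as for FLA11, FLA12 and AGP21, for 32.3%.

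The values were also averaged by the dye of the line. Replicate 3 entered only the Cy5 means and replicate 2 only the Cy3 means, so that these means also differ by replicate. At 8 weeks the mean of the 2 arrays with the line in Cy5 was 1.10 for FLA11, against 0.35 for the 2 arrays with the line in Cy3. It was 1.27 against 0.26 for FLA12 and 1.52 against -0.09 for AGP21. The 2 means of FLA2 were close, at 0.70 with the line in Cy5 and 0.65 with the line in Cy3. Within replicate 1 at 8 weeks, the Cy5 and Cy3 arrays gave 0.43 and 0.69 for FLA11 and 0.44 and 0.42 for FLA12. They gave 0.26 and 0.68 for FLA2 and 1.02 and 0.06 for AGP21. Only AGP21 was thus clearly higher with the line in Cy5 within that replicate. Both Cy5 arrays lay above both Cy3 arrays for FLA12 and AGP21 at 8 weeks, a pattern of 37.8% of all probes, and for FLA11 and FLA12 at 4 weeks, a pattern of 32.9%.

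At 4 weeks the Cy5 and Cy3 means were 0.26 and -0.23 for FLA11, 0.26 and -0.29 for FLA12, 0.04 and 0.36 for FLA2 and 0.28 and 0.01 for AGP21. Each member pair can also be set side by side within one orientation. With the line in Cy5 the 8-week mean exceeded the 4-week mean by 0.84 for FLA11, 1.00 for FLA12, 0.66 for FLA2 and 1.24 for AGP21. With the line in Cy3 the excess was 0.58 for FLA11, 0.54 for FLA12 and 0.29 for FLA2, and AGP21 was lower at 8 weeks, at -0.10. The direction of the age difference thus held in both orientations for 3 of the 4 genes, as it did upward for 19.5% of all probes, a share that is not comparable because the genes were named from the 8-week ratios. Dye and replicate cannot be told apart between replicates 2 and 3, since the orientation was the same at both ages.

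The 4 genes moved alike across the 6 replicate ratios, 3 of them closely. Pearson's r was 0.992 for FLA11 with FLA12, and their ratios never differed by more than 0.326 in a replicate. It was 0.977 for FLA11 with AGP21 and 0.97 for FLA12 with AGP21. FLA2 followed less closely, with r = 0.779 to FLA12, 0.754 to FLA11 and 0.72 to AGP21. At 4 weeks alone it did not follow FLA11 and FLA12. FLA2 was then highest in replicate 1 and lowest in replicate 3, and FLA11 and FLA12 were highest in replicate 3 and lowest in replicate 2. These are descriptions over 6 points that share arrays and normalization, and replicate 3 at 8 weeks carries most of the spread. The naming of all 4 genes from the 8-week arrays favoured large 8-week changes in each, and with them a high r. FLA11 and FLA12 are similar in sequence, and whether their probes share signal was not tested.

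Genes with the profile most like the mean of the 4 (0.50, 0.12 and 1.75 at 8 weeks, 0.20, -0.13 and 0.08 at 4 weeks, in replicates 1, 2 and 3) were taken from the 2 kinds of gene name apart. Among 184 probes named like the members from the study's own lists, the closest were BT5 (r = 0.977), CTL2 (0.97), HSPRO2 (0.97), LAC17 (0.969) and CESA4 (0.964). CESA4 is a subunit of the cellulose synthase of secondary walls, LAC17 a laccase of lignin polymerization, BT5 a BTB and TAZ domain protein and CTL2 a chitinase-like protein linked to cellulose assembly. CESA4 stood at 0.56, 0.13 and 1.95 at 8 weeks, which repeats the order of FLA11 and FLA12, an order that 32.3% of all probes had. These lists hold genes changed on the same arrays, so that likeness to the members was favoured by how the probes were named. Nothing about shared function is read from it. Among 7440 probes named by the array annotation the closest were AT1G06540 (r = 0.989), AT3G13440 (0.988), AT3G56370 (0.988), AT5G58300 (0.983) and AT5G01970 (0.982), with 8-week means of 0.05 to 0.32.

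Other arabinogalactan protein genes could be followed only in part. Of 21 FLA genes, 3 had a named probe, and these are the 3 members. Among the 30 other arabinogalactan proteins 2 had one, AGP21 and the classical protein AGP1. The study itself reports FLA13, FLA15 and AGP4 as significantly higher in the same 8-week stems, each by less than 1.5-fold. Their probes could not be named here. AGP1 gave 0.25, -0.33 and 2.23 in replicates 1, 2 and 3 at 8 weeks and 0.61, -0.87 and 0.07 at 4 weeks. It resembled AGP21 at 8 weeks, with replicate 2 below wild type and replicate 3 far above it, and averaged 0.72 ± 1.34 at 8 weeks and -0.06 ± 0.75 at 4 weeks (SD, n = 3 each). AGP1 also came from the 8-week list, where its probe carried the locus of AGP19, and it was named here by its transcript accession.

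The enzymes that build the sugar chains of arabinogalactan proteins differed from the members in that their names came from the array annotation and not from a list of changed genes. Of 20 such genes, 10 had a probe. The median of their mean log2 ratios was -0.02 at 8 weeks, beside -0.04 for all probes, and -0.02 at 4 weeks, beside 0.00 for all probes (-0.003). None changed over 1.5-fold at either age, where 0.456% of all probes were over 1.5-fold higher at 8 weeks and 1.05% at 4 weeks. In limma 0 of 10 passed the thresholds, as did 0 of 37685 probes. These counts are near the shares of all probes, and nothing about the enzymes is read from them. The highest 8-week mean was that of GLCAT14B, which adds glucuronic acid to the chains, at 0.34 ± 0.301 at 8 weeks and 0.03 ± 0.277 at 4 weeks (SD, n = 3 each). Its ratios at 8 weeks were 0.27, 0.07 and 0.66, the order of replicates seen in FLA11 and FLA12 at a smaller size. Of all probes, 32.3% had this order. GLCAT14B was the 1 enzyme of 10 higher in all 3 replicates at 8 weeks, close to the 7.73% of all probes, and the hydroxyproline galactosyltransferase GALT5 (mean -0.10) the 1 of 10 lower in all 3, as were 18.3% of all probes. The lowest mean was that of GLCAT14C, at -0.11 ± 0.411, with replicate 3 alone above 0.

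**Figure D3:**
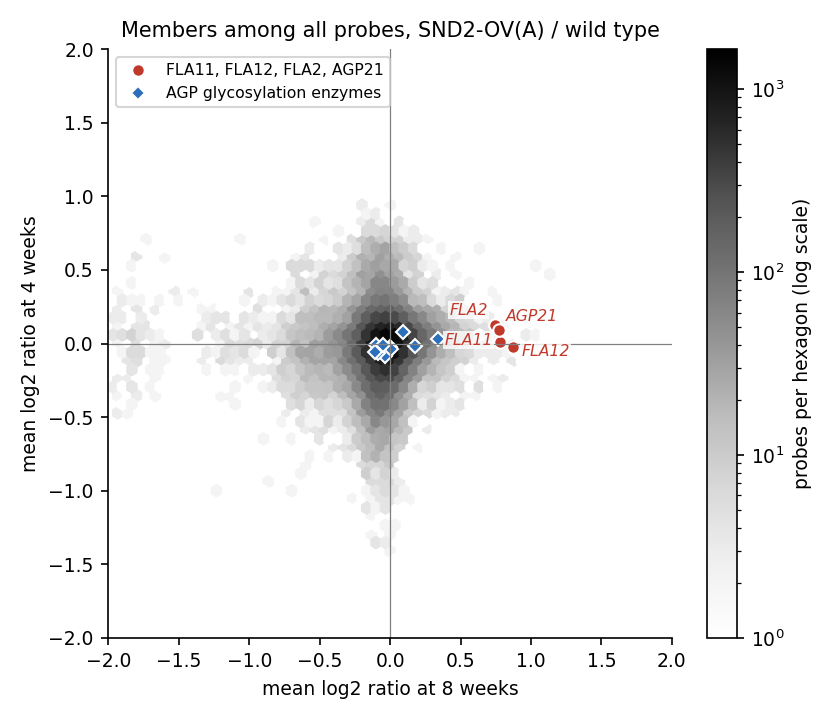
Mean log2 ratio of SND2-OV(A) over wild type at 8 weeks (horizontal axis) against that at 4 weeks (vertical axis), with grey hexagons for the number of probes on a log scale (61 of 37685 probes lie outside the axes), red points for the 4 genes and blue diamonds for 10 arabinogalactan glycosylation enzymes. The 4 genes sit between 0.74 and 0.87 at 8 weeks and within 0.13 of 0 at 4 weeks, to the right of the enzymes, whose 8-week means run from -0.11 to 0.34. The 4 genes could be named only through a change over 1.5-fold at 8 weeks, and the enzymes whatever their ratio. Their separation along the horizontal axis was thus largely set in advance, and nothing is read from it.

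The study proposes a wall signalling route that includes FLA11 and FLA12. Of 7 further genes that it places in the route or names as possible parts of it, 2 had a named probe. CTL2 gave 0.69, -0.23 and 1.85 at 8 weeks, with a mean of 0.77 ± 1.04 at 8 weeks and 0.04 ± 0.0566 at 4 weeks (SD, n = 3 each). Its 8-week values match the pattern of AGP21 in sign and order, an order that 32.3% of all probes had. The protein kinase gene AT1G56720, one of the possible parts and named by the annotation, gave 0.32, 0.06 and 1.11 at 8 weeks and averaged 0.50 ± 0.543 at 8 weeks and 0.05 ± 0.267 at 4 weeks. The fibre marker LAC4 gave 0.96, 0.44 and 1.06 at 8 weeks (mean 0.82 ± 0.332, SD, n = 3), a narrow spread like that of FLA2. LAC4 and CTL2, like the members, were named only through the 8-week list. AT1G56720 was named otherwise, but the study took it up as changed on these same 8-week arrays. Its direction at 8 weeks was therefore not independent either.

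Touch and early stress genes varied widely between replicates. Of 10 on the list, 3 had a named probe, the xyloglucan endotransglucosylase XTH22 and the transcription factors ORA47 and ZAT12. Their median log2 ratio was -0.41, 0.15 and 3.74 in replicates 1, 2 and 3 at 8 weeks, and 1.12, -2.01 and -0.24 at 4 weeks. Replicate 3 at 8 weeks was thus their highest, as it was for FLA11, FLA12, FLA2 and AGP21, and replicate 2 was the lowest of the 3 at 4 weeks, as it was for FLA11, FLA12 and AGP21. Replicate 3 was the highest at 8 weeks for 46.2% of all probes, and the share with replicate 2 lowest at 4 weeks was not counted. XTH22 and ZAT12, like the members, were named only through the study's lists of changed genes, and ORA47 by the annotation. That naming favoured the likeness, and nothing is read from it. XTH22 reached 3.82 in replicate 3 at 8 weeks. Elsewhere the order differed, since ORA47 (-1.65) and ZAT12 (-0.41) were lowest in replicate 1 at 8 weeks, where the 4 members stood between 0.43 and 0.56, and ORA47 was at -1.88 in replicate 3 at 4 weeks, where FLA11, FLA12 and AGP21 were near 0.17. The part of these genes' response in the members' values was not tested.

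**Figure D4:**
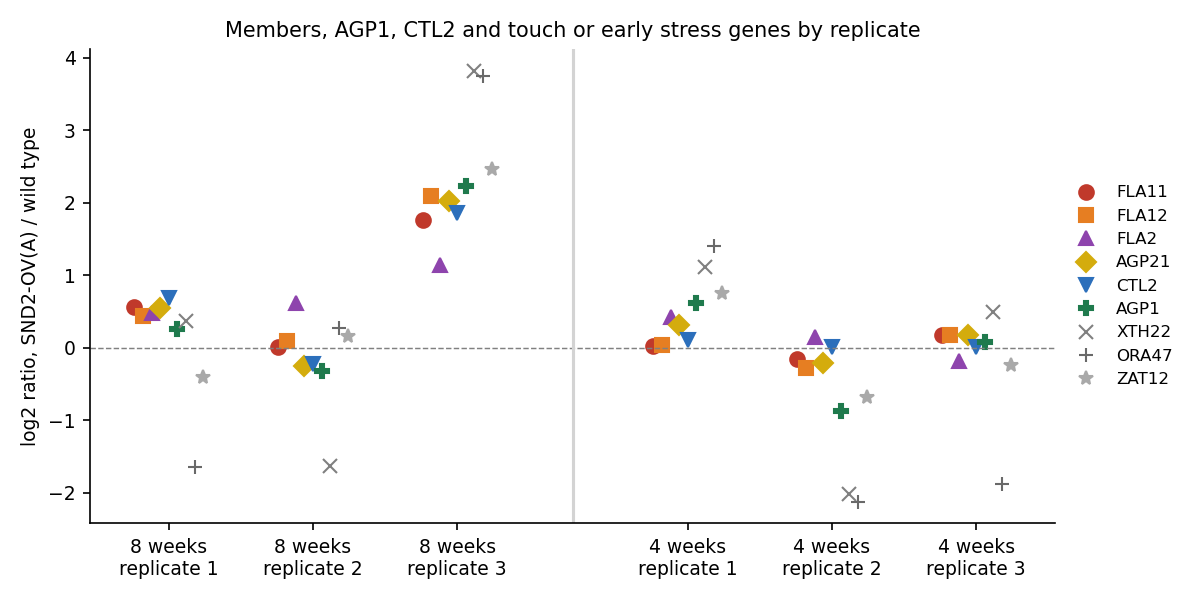
Log2 ratio of SND2-OV(A) over wild type in each biological replicate at 8 weeks and at 4 weeks for the 4 genes, AGP1, CTL2 and the touch or early stress genes XTH22, ORA47 and ZAT12, with the dye-swapped pair of replicate 1 averaged. In replicate 3 at 8 weeks every plotted gene is at its highest, between 1.14 for FLA2 and 3.82 for XTH22. All plotted genes except ORA47 were named only through the study's lists of changed genes, which favoured this likeness.

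Measured genes beside the members on the chromosomes had ratios near 0. Of 16 neighbours, the 2 nearest on each side of each gene in RefSeq order (assembly TAIR10.1, used for gene order only), 5 had a named probe, next to FLA11, FLA2 and AGP21. Their mean log2 ratios ran from -0.08 to 0.04 at 8 weeks and from -0.15 to 0.18 at 4 weeks.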

How the data were processed

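The authors scanned the arrays, extracted features with GenePix Pro, normalized them in limma and deposited log2 ratios (SND2-OV(A) relative to wild type) for 37685 probes on 8 arrays. No intensities were used here, so signal over background is unknown and the number of arrays limits the precision. Ages, replicates and dyes came from the sample labels. Genes were assigned to 7440 probes by the array annotation and to 188 more by the identifiers in the study's supplementary lists, whose fold changes and p-values were not used. The probe number served as the link, and it matched for 48 of 48 and 12 of 12 transcript accessions shared by both sources. The locus was the same for 53 of 55 and 12 of 12 shared probe numbers. The dye-swapped arrays of replicate 1 were averaged. Each age was fitted alone in limma 3.58.1 (lmFit and eBayes, R 4.3.3) and the age difference in one fit, with Benjamini-Hochberg adjustment over all probes. The fit was tested on simulated data. Genes named are the 4 members, the highest and lowest means of each list, any gene with a call and the closest profiles. Members and lists were chosen with earlier results of these data known. Alternatives covered the dye-swapped pair, a dye term, scaling, fits, thresholds, the replicate block and replicates left out. Python 3.11.15 drew the plots, with pandas 2.3.3, numpy 2.4.6 and matplotlib 3.10.9.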

Additional observations from a re-analysis of the deposited data

How the results depend on the processing

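At 8 weeks all 44 alternatives to the 4 member ratios kept a value above 0, and over the 140 alternatives to the 12 member results at both ages and for their difference the lowest adjusted p in limma was 0.558, so that no member was called. With each replicate left out in turn, the 8-week value ran from 0.29 to 1.16 for FLA11, 0.26 to 1.26 for FLA12, 0.54 to 0.88 for FLA2 and 0.15 to 1.28 for AGP21, each lowest without replicate 3. The 4-week value ran from -0.067 to 0.10 for FLA11, -0.12 to 0.10 for FLA12, -0.025 to 0.28 for FLA2 and -0.020 to 0.25 for AGP21, so that all 4 signs depended on which replicate was left out. The 8-minus-4-week difference ran from 0.27 to 1.15 for FLA11, 0.29 to 1.29 for FLA12, 0.42 to 0.77 for FLA2 and 0.06 to 1.19 for AGP21. At 4 weeks FLA11 turned to -0.094 with only the replicate 1 array that had the line in Cy3, and FLA12 to 0.081 with only the one that had it in Cy5. AGP21's difference between ages turned to -0.10 with the line in Cy3 alone, an alternative chosen after seeing the data. The cause of these turns was not tested.

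The number of probes called was 2 at 8 weeks and 2 at 4 weeks with both ages in one fit, 2 at 4 weeks with all 4 arrays as separate observations, and 0 to 3 at 8 weeks with a replicate left out (3 without replicate 1, 1 without replicate 2). Centring each array on its median added 0.036 to the 8-week means and took 0.005 from the 4-week means, and turned no member's direction.

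Same-numbered replicates of the 2 ages share a number and the dye orientation of their arrays. The deviations of equal numbers from their age means correlated over probes at -0.02, 0.123 and 0.156 for replicates 1, 2 and 3. Replicates 2 and 3 at 8 weeks each correlated best with their own number at 4 weeks. Replicate 1 at 8 weeks correlated best with replicate 2 at 4 weeks (0.078). The part of the dye in these correlations was not tested. With the replicate block the differences stayed at 0.77 for FLA11, 0.90 for FLA12, 0.62 for FLA2 and 0.68 for AGP21, with an adjusted p of 1, and 0 probes were called with and without it.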
